A study of Mus musculus with 12 samples.

Results

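Among the windows of 1 kb at gene starts in which H3K14ac was counted in mouse neural stem and progenitor cells, 1777 of 27095 held markedly fewer counts in the ChIP of proliferating cells than in the input of the same stage. They are called low-P windows here, and each stands for 1 gene. P is the log2 ratio of the summed count of the 3 proliferating WT ChIP libraries, plus 1, to the proliferating input count, plus 1, each divided by its gene body total. A low-P window lay on an autosome, had a proliferating input count of at least 10, and had a P of −0.7 or less. Of the 27095 windows, 19387 were autosomal with that input count, so low-P windows were 9.17% of the windows that could be chosen, and the remaining 17610 are called other windows. The rule used the proliferating WT and input counts, so values from those libraries describe the choice and carry no test. Comparisons rest on the differentiating, IgG and null libraries and on proliferating libraries held out of the choice.

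Acetylation of histone H3 at lysine 14 (H3K14ac) is placed by the acetyltransferase HBO1, encoded by Kat7, among other enzymes, and lies near the starts of active genes. Promoters rich in CG dinucleotides, called CpG islands, are common at broadly active genes and at developmental regulators. Many such regulators, the Hox clusters above all, are silent in the forebrain, and so are genes of chemosensory neurons, lymphocytes and skin.

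The cells were grown as neurospheres from cortex and ganglionic eminences at embryonic day 14.5. The groups were WT H3K14ac ChIP of differentiating cells (plated on laminin in cortical neuron medium, 3 libraries) and of proliferating cells (3 libraries), H3K14ac ChIP of Hbo1 null cells at each stage (1 library each), IgG ChIP at each stage (1 each, genotype not given in the labels) and WT input at each stage (1 each). The series names 4 WT foetuses without tying any library to one of them. The p-values below therefore rest on the spread between WT ChIP libraries, and part or all of that spread could be technical. Each stage had a single input, IgG and null library. The column name of each input carries the number 1, as does WT replicate 1 of its stage. Whether they came from the same cells is not stated, so replicate 1 may be closer to the input than the others. The tests assume that the control library varies like the WT ChIP libraries, and with 1 control its own spread could not be measured. The Hbo1 deleted cells served the study as a negative control, and the labels give neither the deletion method nor the number of embryos per library. The antibody field names the H3K14ac antibody for input and IgG as well.

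To show what kinds of gene starts were among them, the DNA from 250 bases before to 30 bases after the RefSeq gene start is given for 6 low-P windows and for Sox2, a stem cell regulator that was not one of them and had a P of 2.08. The first 6 were chosen after their values were seen. They cover CG-rich regulators (Hoxa5, which patterns the body axis, and Pitx3, a factor of midbrain and lens), the named window with the lowest P (Itga10, an integrin of cartilage), a hair follicle keratin (Krt27) and 2 sensory receptor genes with no CG at all (Mrgpra4, a receptor of itch neurons, and Olfr340, an odorant receptor). Sequences are from RefSeq for GRCm38.p6 and read 5′ to 3′ on the gene's strand, with each CG in capitals. The printed stretch held 29 CG in Hoxa5, 19 in Pitx3, 4 in Itga10, 6 in Krt27, 0 in Mrgpra4, 0 in Olfr340 and 27 in Sox2.
Hoxa5 (chr6:52204558-52204837, minus strand): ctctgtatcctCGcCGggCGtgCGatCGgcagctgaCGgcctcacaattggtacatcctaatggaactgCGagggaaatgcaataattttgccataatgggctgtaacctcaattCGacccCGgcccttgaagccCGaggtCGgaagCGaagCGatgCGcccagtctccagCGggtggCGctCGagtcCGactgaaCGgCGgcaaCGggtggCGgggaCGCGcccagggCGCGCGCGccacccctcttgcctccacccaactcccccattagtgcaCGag
Pitx3 (chr19:46148296-46148575, minus strand): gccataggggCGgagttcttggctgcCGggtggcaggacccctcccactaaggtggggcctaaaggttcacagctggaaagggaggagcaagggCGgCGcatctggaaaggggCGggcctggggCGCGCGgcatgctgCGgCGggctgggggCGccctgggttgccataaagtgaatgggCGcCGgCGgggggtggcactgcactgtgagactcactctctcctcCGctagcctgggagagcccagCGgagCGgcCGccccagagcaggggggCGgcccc
Itga10 (chr3:96645334-96645613, plus strand): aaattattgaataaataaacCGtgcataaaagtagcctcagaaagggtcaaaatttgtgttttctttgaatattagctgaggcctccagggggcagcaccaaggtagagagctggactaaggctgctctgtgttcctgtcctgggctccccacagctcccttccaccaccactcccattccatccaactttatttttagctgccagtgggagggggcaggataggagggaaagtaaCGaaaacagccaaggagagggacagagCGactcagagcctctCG
Krt27 (chr11:99351089-99351368, minus strand): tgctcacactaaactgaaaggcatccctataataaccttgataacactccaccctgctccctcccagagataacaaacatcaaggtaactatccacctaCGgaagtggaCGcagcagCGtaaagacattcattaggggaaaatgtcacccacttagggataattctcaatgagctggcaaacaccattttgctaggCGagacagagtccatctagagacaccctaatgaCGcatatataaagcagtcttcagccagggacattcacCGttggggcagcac
Mrgpra4 (chr7:47982267-47982546, minus strand): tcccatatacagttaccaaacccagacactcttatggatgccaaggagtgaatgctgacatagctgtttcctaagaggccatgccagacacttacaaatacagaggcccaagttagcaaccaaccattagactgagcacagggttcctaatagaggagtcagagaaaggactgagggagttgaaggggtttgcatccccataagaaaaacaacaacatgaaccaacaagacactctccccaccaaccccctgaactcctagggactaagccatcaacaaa
Olfr340 (chr2:36452337-36452616, plus strand): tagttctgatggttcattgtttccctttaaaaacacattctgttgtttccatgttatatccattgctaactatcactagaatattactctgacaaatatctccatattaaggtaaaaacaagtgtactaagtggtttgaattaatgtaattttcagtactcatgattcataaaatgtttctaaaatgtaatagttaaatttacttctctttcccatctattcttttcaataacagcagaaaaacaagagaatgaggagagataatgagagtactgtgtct
Sox2 (chr3:34649745-34650024, plus strand): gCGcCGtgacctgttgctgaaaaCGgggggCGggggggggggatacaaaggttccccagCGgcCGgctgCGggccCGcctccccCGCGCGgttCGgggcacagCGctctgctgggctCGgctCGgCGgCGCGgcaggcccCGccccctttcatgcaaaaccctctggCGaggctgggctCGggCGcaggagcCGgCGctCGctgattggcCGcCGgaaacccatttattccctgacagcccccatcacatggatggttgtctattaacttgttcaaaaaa

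Gene body totals were 12549913, 12782070 and 17074249 counts in differentiating WT ChIP, 4542787 to 7611239 in proliferating WT ChIP, 320601 and 64071 in the differentiating and proliferating null libraries, 2771713 and 2526252 in the IgG libraries, and 12689734 and 11871306 in the inputs. A low-P window held on average 13.2, 12.8 and 16.5 counts in differentiating WT ChIP, 2.58 counts in differentiating IgG and 15.8 in differentiating input. In the null libraries 74.6% (differentiating) and 95.2% (proliferating) of the low-P windows were at 0. Sex chromosome counts set libraries apart: Y counts were 0.0760% of autosomal gene body counts in differentiating WT replicate 3 and 0.0693% to 0.0913% in IgG, 0.0486% in the differentiating null library, and 0.0131% or less in the other libraries. Low-P windows are autosomal. Sums are given per library or as mean and SD of 3 libraries, and pooled values and tests include replicate 3 unless it is said to be left out. None of the 20 measured windows on the list of neural stem and progenitor genes was a low-P window. For that list the differentiating WT ChIP was 1.52 ± 0.281 times the input (SD, n = 3).

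The choice itself gave the following values. P of the low-P windows had a median of −0.95 and reached −3.90. In sum, they held 0.566, 0.443 and 0.461 times the proliferating input in the 3 proliferating WT libraries, and the other windows 1.49, 1.54 and 1.52 times. Just inside the threshold lay Zfhx2os, Zfp57 and Zfp646 (P = −0.71 each), and just outside lay Vmn1r101, 4930517E11Rik and Adarb2 (P = −0.70 each). Zfp57, which keeps imprints, had 6, 4 and 4 counts in the proliferating WT libraries and 17 in the input, whereas Adarb2, an RNA-editing enzyme homologue of brain, had 7, 5 and 8 counts and 24 in the input. Both windows held fewer than 10 counts in each of the proliferating WT libraries. These are raw counts, and the proliferating WT libraries had smaller totals than the input.

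The input itself was part of the rule. Low-P windows held 1.57 counts per 1000000 gene body counts (CPM) per window in the proliferating input and 1.24 CPM in the differentiating input, while other windows held 1.30 and 1.21 CPM. Differentiating input at low-P windows was thus 0.794 of proliferating input, against 0.926 at other windows. How far a high count in 1 input library took part in the choice was not tested.

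Windows were also chosen by the same rule with 1 proliferating WT library left out, and then measured in that library against libraries the choice had not used. Leaving out replicate 1, 2 or 3 gave 2282, 1655 and 1681 windows, of which 1513, 1343 and 1150 were low-P windows of the full choice. In the held-out library these windows held 0.975, 0.751 and 0.827 times the differentiating input in sum, and the remaining windows 1.60, 1.63 and 1.61 times. Against proliferating IgG the ratios were 1.04, 0.796 and 0.847, and those of the remaining windows 1.55, 1.58 and 1.56. Held-out signal at the chosen windows was therefore below that of the remaining windows in 3 of 3 libraries, but in replicate 1 it was near the level of input and IgG. In replicates 2 and 3 it was below both. Held-out libraries were not set against the proliferating input, to which the name "depleted below input" refers.

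After differentiation the low-P windows remained the lower set. In sum they held 0.849, 0.805 and 0.778 times the differentiating input in the 3 differentiating WT libraries (0.811 ± 0.0358, SD, n = 3). The other windows held 1.20, 1.00 and 1.05 times (1.08 ± 0.104). The ratio of the low-P windows was the lower in 3 of 3 libraries, by a factor of 0.708, 0.804 and 0.745. That factor uses no library size. In proliferation, where the rule was applied, the same factor relative to differentiating input was 0.442, 0.336 and 0.353. With 1 differentiating input library the sums allow no test of ChIP against input.

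**Figure D1:**
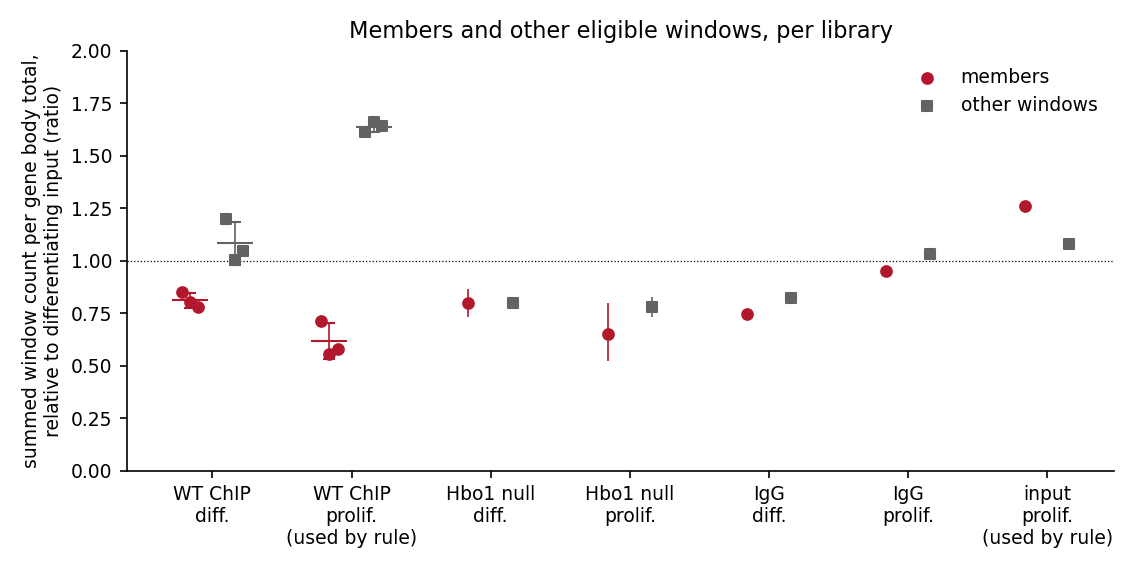
Summed window count divided by gene body total, relative to differentiating input (vertical axis, ratio), per library for the low-P windows (members, red circles) and other windows (grey squares). Horizontal bars and whiskers are mean and SD of 3 libraries, vertical lines on the null libraries are 95% Poisson intervals, and the dotted line marks the input level. Members in differentiating WT ChIP lie at 0.778 to 0.849, and the other windows at 1.00 to 1.20. For members, IgG lies at 0.748 (differentiating) and 0.950 (proliferating), and null at 0.798 (differentiating) and 0.650 (proliferating).

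Per window, the log2 ratio of pooled differentiating WT ChIP to differentiating input (pseudocount 1) had a median of −0.36 in low-P windows and 0.02 in other windows. It was below 0 in 77.2% of low-P windows and 47.9% of other windows, and at −0.7 or less in 394 low-P windows (22.2%) and 6.80% of the other windows. All 3 differentiating WT libraries lay below input, per gene body total, in 845 low-P windows (47.6%), and this was so in 24.7 percent of all 19387 windows that could be chosen. All 3 lay above input in 217 low-P windows (12.2%), against 31.1 percent of all. The distributions overlapped broadly, and 405 low-P windows had a ratio above 0. Across the low-P windows P and the differentiating ratio had a Pearson r of 0.16 (n = 1777). Across all 19387 windows r was 0.45. These are descriptions across windows that share libraries and depth.

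**Figure D2:**
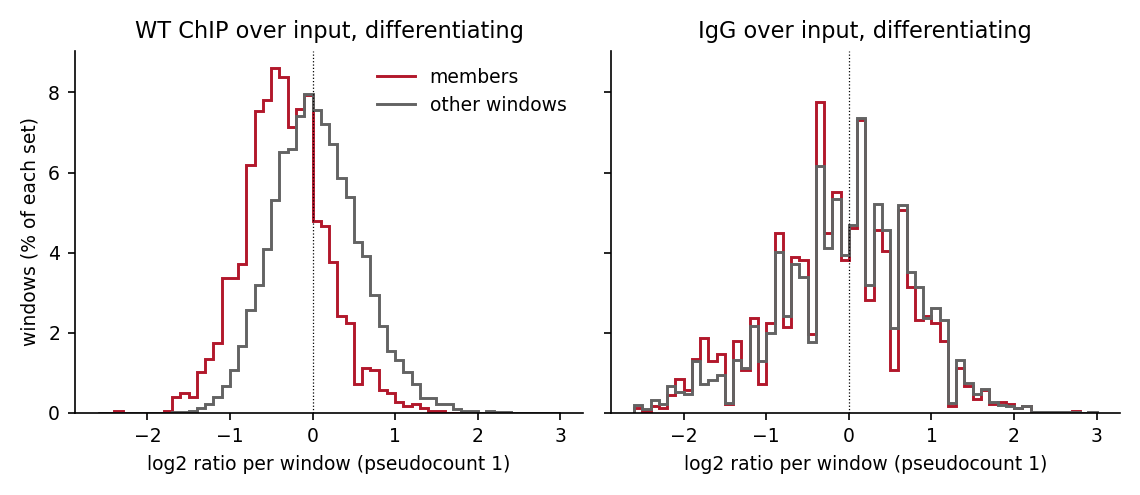
Distribution of the log2 ratio per window for low-P windows (members, red) and other windows (grey) in differentiating cells, as percent of each set in steps of 0.1, with values beyond the axis counted in the end bins. WT ChIP over input (left) is shifted down in members (median −0.36 against 0.02), and IgG over input (right) much less (−0.13 against 0.02).

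No single low-P window passed the test against differentiating input. Of the low-P windows 1577 had a mean count of at least 10 and were tested, and 200 were not. With edgeR's quasi-likelihood test 0 were lower and 0 higher at an adjusted p under 0.05, where 0.00816 percent of the 24495 windows tested were lower and 0.18 percent higher. At an unadjusted p under 0.05, 135 low-P windows (8.56%) were lower against a background of 3.38 percent, and 17 (1.08%) were higher against 6.94 percent. DESeq2 also called 0 in either direction. At an unadjusted p under 0.05 it had 18 low-P windows lower and 0 higher, beside 95 lower and 386 higher of all 24495 windows. The median fitted log2 difference was −0.28 in low-P windows and 0.07 over all windows tested. Without replicate 3 these medians were −0.24 and 0.10.

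The low-P windows with the smallest p against input held few counts. Apold1, an endothelial early response gene (chr6:134982001-134986836, GRCm38.p6), had 9, 3 and 14 counts in the differentiating WT libraries and 25 in the input. All 3 were below input, and the fitted log2 difference was −1.68 (SE 0.462, edgeR adjusted p = 0.0803). Cela3b, a pancreatic elastase, had 11, 11 and 8 counts against 25 in input (log2 −1.46, SE 0.445, edgeR adjusted p = 0.135). Its 3 ChIP counts were alike and all below the input count. Mrgpra4 had 11, 14 and 19 counts against 30 in input, and was the only window among the 10 lowest p against both controls, with 9 counts in differentiating IgG, a library of far smaller total. Its fitted log2 difference was −1.18 against input and −1.64 against IgG, with edgeR adjusted p = 0.188 and 0.268. The other 7 were Myzap (heart muscle), Aoc3 (an amine oxidase of fat and vessels), Ccdc169, Dnajb13 (sperm and cilia), Dynll2 (a dynein light chain), Ly6g6f (platelets) and Ahrr (repressor of the aryl hydrocarbon receptor). Their log2 differences ran from −1.59 in Ccdc169 to −1.23 in Dynll2, with adjusted p of 0.154 to 0.181.

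Against IgG the low-P windows stood on either side, depending on the IgG library. In sum the differentiating WT libraries held 1.14, 1.08 and 1.04 times the differentiating IgG at low-P windows (1.08 ± 0.0479, SD, n = 3) and 1.32 ± 0.126 times at other windows. Differentiating IgG itself was 0.748 of differentiating input at low-P windows and 0.822 at other windows, and proliferating IgG 0.950 and 1.03. Relative to proliferating IgG the differentiating WT libraries were therefore at 0.854 ± 0.0377 at low-P windows and 1.05 ± 0.100 at other windows. All 3 WT libraries lay below IgG in 528 low-P windows (29.7%, against 20.4 percent of all windows that could be chosen) and above it in 792 (44.6%, against 53.7 percent). The pooled log2 ratio per window had a median of −0.27 in low-P windows and 0.03 in other windows. The median IgG count was 2 per low-P window, and with a pseudocount of 0.5 the median was −0.029.

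In the edgeR test against IgG 1109 low-P windows were tested and 668 were not. None was lower or higher at an adjusted p under 0.05, where 0.014 percent of all windows tested were lower and 0.0 percent higher. At an unadjusted p under 0.05, 19 (1.71%) were lower against 1.21 percent of all, and 76 (6.85%) higher against 8.89 percent. DESeq2 called 0. At an unadjusted p under 0.05 it had 18 low-P windows lower and 0 higher, beside 240 lower and 226 higher of all 21419 windows. Efcab5, a calcium-binding protein gene, had the smallest p of those lower, with 14, 12 and 10 counts in differentiating WT ChIP and 10 in IgG (log2 −2.06, SE 0.615, edgeR adjusted p = 0.268). Its proliferating IgG count was 2. The vomeronasal receptor gene Vmn1r160 followed, with 12, 21 and 24 counts against 13 in differentiating IgG and 5 in proliferating IgG (log2 −1.80, edgeR adjusted p = 0.268). The differentiating IgG count of both windows was far above that of proliferating IgG. Zfp287, Cacng8, Eno4, Wfdc3, Olfr1448, Kank4os and Nsd2 completed the 10, at log2 −1.83 to −1.43 and adjusted p of 0.268 to 0.281.

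Null cells gave sums only. The differentiating null library held 565 counts over all low-P windows, 0.798 times the differentiating input (95% Poisson interval 0.734 to 0.867, counting error only), and 0.799 times at other windows. The proliferating null library held 92 counts, a ratio of 0.650 (0.524 to 0.798), and 0.779 at other windows. Both pooled gave 0.774 (0.716 to 0.835), against 0.811 ± 0.0358 in differentiating WT ChIP (SD, n = 3). WT replicates 2 and 3 lay within that interval and replicate 1 (0.849) above it. With window totals as library sizes the order turned, to 0.858 in null cells and 0.760 in WT cells. At other windows the pooled null stood at 0.795 (0.776 to 0.815), below all 3 WT libraries (1.00 to 1.20).

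In sum, the rest of the gene body lay closer to input than the window did. In the 1442 low-P genes longer than 1000 bases, the gene body outside the window held 0.978, 0.970 and 0.976 times the differentiating input in the 3 differentiating WT libraries. The windows of the same genes held 0.851, 0.799 and 0.770 times. Outside the window the values of other genes were 0.987, 0.988 and 1.00. Scaling to gene body totals holds such sums near the input level in any library. At the low-P genes differentiating and proliferating IgG stood at 0.951 and 0.993 outside the window. Per gene the gap was smaller: the median log2 ratio of the low-P genes was −0.16, −0.21 and −0.25 outside the window, and −0.19, −0.31 and −0.37 in the window. Density gave the same order within a library: per kb, the low-P windows held 1.10, 1.04 and 0.996 times the density of the rest of their genes in differentiating WT ChIP, 0.988 times in differentiating IgG and 1.26 times in differentiating input. Other windows stood at 1.50, 1.25 and 1.29 times in WT ChIP and 1.22 times in input.

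Some whole genes were called against input. Of 1678 gene bodies tested 66 (3.93%) were lower and 33 (1.97%) higher in differentiating WT ChIP (edgeR adjusted p under 0.05), against a background of 6.51 percent lower and 3.85 percent higher. At an unadjusted p under 0.05, 395 were lower (23.5%, background 23.7 percent) and 69 higher (4.11%, background 8.82 percent). The calls rested on the libraries and the scaling, here and over all gene bodies. Without replicate 2 there were 0 lower and 0 higher, and likewise 0 and 0 over all. Without replicate 3 there were 199 lower and 45 higher, beside 3772 and 1676 of all 25139 gene bodies. With TMM scaling there were 11 lower and 49 higher, beside 399 and 1371 of all 25328, and with DESeq2 0 and 41, beside 47 and 1108. The 33 higher genes were long, with a median of 92990 bases against 16797.5 bases in the 66 lower ones. The 5 with the smallest p in each direction were named after their values were seen.

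Among the higher genes were Epha6 (an ephrin receptor), Gpr158 (a neuronal receptor), Lingo2 and Cntnap5a (neuronal surface proteins) and Macc1. The Epha6 gene body held 887, 941 and 985 CPM in differentiating WT ChIP and 630 CPM in input (log2 0.57, SE 0.0614, edgeR adjusted p = 0.0219). It also held 971 and 760 CPM in differentiating and proliferating IgG and 905 CPM in the differentiating null library, so input stood apart from the precipitated libraries. Gpr158 held 498, 488 and 504 CPM against 374 CPM in input (log2 0.41, edgeR adjusted p = 0.0219), with 476 CPM in differentiating IgG and 340 CPM in the differentiating null library. Among the lower genes Polrmt, the mitochondrial RNA polymerase, held 6.77, 5.95 and 6.21 CPM against 13.9 CPM in input (log2 −1.14, SE 0.163, edgeR adjusted p = 0.0235), and 10.8 CPM in differentiating IgG. Nif3l1, Bbs1 (a ciliary protein), Recql5 (a DNA helicase) and Sfi1 were the other 4, at log2 −0.72 to −0.43. Against IgG 1 of 1607 gene bodies was lower and 3 were higher, against a background of 0.145 and 0.129 percent. At an unadjusted p under 0.05, 59 were lower (3.67%, background 6.08 percent) and 118 higher (7.34%, background 6.61 percent). The higher ones, named after their values were seen, were 2410018L13Rik, Gm4454 and Gm10693. The lower one was Itln1, an intestinal lectin, with 15.3, 16.3 and 17.4 CPM in WT ChIP and 53.4 CPM in differentiating IgG (log2 −1.71, SE 0.122, edgeR adjusted p = 0.00514). Its input held 17.6 CPM, so at Itln1 the IgG libraries stood apart.

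Hox genes, the homeobox regulators that specify position along the body axis, had the highest share of low-P windows among the developmental lists, although other homeobox and paired-box genes supplied more by number. The counts cover 39 Hox windows, of which 29 could be chosen and 23 were low-P windows. Their summed count was 248, 219 and 287 in differentiating WT ChIP and 313 in differentiating input, which is 0.801, 0.695 and 0.681 times the input (0.726 ± 0.0656, SD, n = 3). All 3 libraries were below input in 15 of the 23 windows and above it in 2. The shares were 47.6% and 12.2% over all low-P windows, and 24.7% and 31.1% over all windows that could be chosen. Hox windows not chosen held 0.969 ± 0.0278 times the input (SD, n = 3). None of the 23 was among the calls of edgeR or DESeq2. Differentiating IgG held 40 counts, 0.585 times the input (95% Poisson interval 0.418 to 0.797), and proliferating IgG 70 counts, 1.12 times (0.876 to 1.42). The WT values thus lay between the 2 IgG libraries.

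Within the Hox clusters the low-P windows adjoined each other. Counting only windows that could be chosen, a run of 11 neighbouring low-P windows reached from Hoxa5 to Evx1os (chr6:52201754-52314832), with Hoxa3, Hoxa7, Hoxa9, Hoxa10 and Hoxa11 among them. On chromosome 11, 8 reached from Ttll6 to Hoxb4, on chromosome 15, 6 from Hoxc12 to Hoxc8 with the noncoding Hotair, and on chromosome 2, 5 from Evx2 to Hoxd8. Hoxa5, whose sequence is given above, had 12, 17 and 15 counts in differentiating WT ChIP and 18 in input, with 2 and 5 counts in differentiating and proliferating IgG. All 3 counts were below that of the input. Hoxc10 had 14, 4 and 15 counts against 14 in input, and 2, 1 and 4 against 24 in proliferation. Scaled, its proliferating values were 0.440, 0.250 and 0.526 CPM against 2.02 CPM. Its differentiating libraries straddled input. Among Hox windows named after their values were seen, Hoxa9 was the lowest in differentiation, with 5, 6 and 12 counts against 19 in input. Hoxb6, with 14, 9 and 15 counts against 7, was above input in all 3 libraries.

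Other regulators followed in part. Of 91 other homeobox and paired-box windows that could be chosen, 30 were low-P windows, with a summed ratio of 0.801 ± 0.0653 to differentiating input (SD, n = 3) and 15 below input in all 3 libraries, a share near that of all low-P windows (47.6%). Evx2, a homeobox gene beside Hoxd13, had 10, 12 and 18 counts against 26. Dlx3, of placenta and skin appendages, had 21, 16 and 16 against 19, and Pitx3 had 21, 10 and 15 against 15. Evx2 was below input throughout, while Dlx3 and Pitx3 straddled it. For forkhead, T-box and Gata genes 11 of 39 were low-P windows, at 0.808 ± 0.145. Of these, 3 were below input in all 3 libraries and 2 above, where all low-P windows had 47.6% and 12.2%. Tbx3, a limb and heart factor, had 14, 7 and 10 counts against 21, whereas Tbx1, a pharyngeal arch factor, had 13, 12 and 16 against 9 and Foxd4 16, 10 and 18 against 11. The 8 of 36 lineage factors of the bHLH family stood at 1.01 ± 0.277. Atoh1, a proneural factor of hindbrain and ear, had 12, 13 and 21 counts against 9 in differentiating input, and the muscle factor Myod1 9, 8 and 11 against 13. The 14 of 49 developmental ligands and their antagonists stood at 0.993 ± 0.0665. Wnt9b had 14, 14 and 34 counts against 15, and Sfrp5, a secreted Wnt inhibitor, 19, 13 and 31 against 16. The mean of both these lists was near the input level in differentiation, with replicate 1 of the bHLH list at 1.33 and replicates 2 and 3 at 0.827 and 0.867. No difference between the lists was tested.

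**Figure D3:**
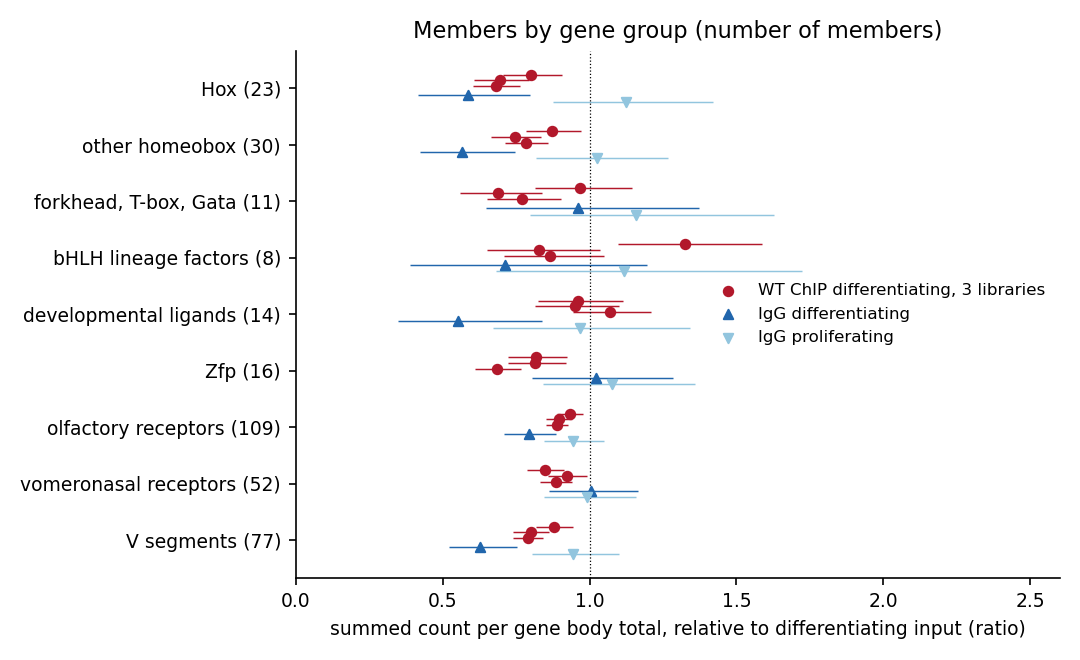
Summed count per gene body total relative to differentiating input (horizontal axis, ratio) over the low-P windows of each gene group, with their number in parentheses. Red circles are the 3 differentiating WT ChIP libraries, blue triangles the differentiating and pale triangles the proliferating IgG library, and lines are 95% Poisson intervals of the counts; Hox lies at 0.681 to 0.801, developmental ligands at 0.949 to 1.07.

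Gene families of immune and sensory cells supplied low-P windows in unlike shares. Low-P windows were 50% of V segments, 25.9% of vomeronasal and 12.3% of olfactory receptors, beside 9.17% of all windows that could be chosen. Among all genes of at most 1000 bases the share was 23.1%. Of 154 V segments of immunoglobulin and T cell receptor loci that could be chosen, 77 were low-P windows, with runs of 10 and 9 in the immunoglobulin heavy chain locus on chromosome 12 and of 8 among Trav segments on chromosome 14. Their summed ratio in differentiation was 0.823 ± 0.0483 (SD, n = 3), and that of the V segments not chosen was 0.820 ± 0.0102. The means of chosen and not chosen V segments differed by less than the spread between libraries. Olfactory receptors gave 109 low-P windows of 885 (0.906 ± 0.0238 for the low-P windows and 0.954 ± 0.0232 for the rest). Vomeronasal receptors gave 52 of 201 (0.886 ± 0.0374 and 1.07 ± 0.00969). Olfr340 had 20, 24 and 29 counts in differentiating WT ChIP and 21 in input, and 6, 5 and 6 against 23 in proliferation. The proliferating WT libraries had smaller totals than their input. Scaled, the proliferating Olfr340 values were 1.32, 1.25 and 0.788 CPM against 1.94 CPM. Clustered protocadherins gave 14 of 58 (24.1%), at 0.738 ± 0.0783 for the low-P windows and 0.836 ± 0.0621 for the rest. These families hold near-identical copies. Since the handling of multi-mapping reads is not given in the sources used here, their values are uncertain.

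Further lists are given by their share of the windows that could be chosen, which was 9.17% over all genes. Of 337 Zfp zinc finger windows 16 were low-P windows (4.75%), of 72 ribosomal protein windows 1 (Rpl6l), of 35 replication-dependent histone windows 1 (H2bc1, a testis variant), of 26 housekeeping windows 1 (Ywhaz) and of 39 collagen windows 1 (Col3a1). Solute carriers gave 23 of 291 (7.90%), potassium channels 6 of 81 (7.41%), genes of liver, muscle and blood 3 of 36 (8.33%), and keratins 6 of 42 (14.3%). Of 13 marker windows of microglia, endothelium and mesenchyme 2 were low-P windows, with 1 below input in all 3 libraries and a summed ratio of 0.659 ± 0.280 (SD, n = 3). Col3a1, a collagen of connective tissue, had 15, 19 and 23 counts in differentiating WT ChIP against 8 in input, all above it. Its proliferating counts were 5, 2 and 10 against 21, or 1.10, 0.501 and 1.31 CPM against 1.77 CPM. It did not pass the edgeR test against input (adjusted p = 0.460).

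Low-P windows were poor in CG where sequence was at hand. RefSeq promoters of 300 bases were found for 1242 low-P windows (69.9%) and 77.6% of other windows. In 884 of the 1242 the promoter's start lay within 10 bases of the RefSeq gene start. For the rest, the sequence may belong to another start than the counted window, which also limits the CG classes below. Because fewer than 80% matched, a check over the whole set is void, and the values describe only the matched windows. The median was 5 CG (quartiles 2 and 12) in low-P windows, 15 (5 and 25) in other windows and 24 (16 and 31) in windows with P of 0.7 or more. The median GC content was 51.7%, 57.3% and 62.7% in the same order. GGGCGG, the core of the GC box, was found on either strand in 26.7% of low-P promoters, 49.2% of other promoters and 46.0% of the 18458 promoters matched in the table. TATAAA was in 17.9%, 11.8% and 13.1%, CCAAT in 38.4%, 38.9% and 39.2%, and CACGTG in 5.88%, 8.49% and 8.04%. Pitx3 and Sox2 had GGGCGG among the sequences given above, and Krt27 had TATAAA.

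The low level in differentiation was found in every CG class. The summed ratio was 0.842 ± 0.0252 in the 484 low-P windows with 3 or fewer CG, 0.791 ± 0.0398 in the 377 intermediate ones, 0.823 ± 0.0574 in the 381 with 10 or more, and 0.788 ± 0.0365 in the 535 without a promoter sequence (SD, n = 3 libraries). Other windows of the same classes stood at 0.967 ± 0.0295, 0.974 ± 0.0753, 1.16 ± 0.143 and 1.07 ± 0.100. The low-P windows were below the other windows in 3 of 3 libraries in each class. The gap was widest in the CG-rich class, in which other windows were above input. Differentiating IgG at low-P windows was 0.783, 0.751, 0.747 and 0.715 in the 4 classes.

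**Figure D4:**
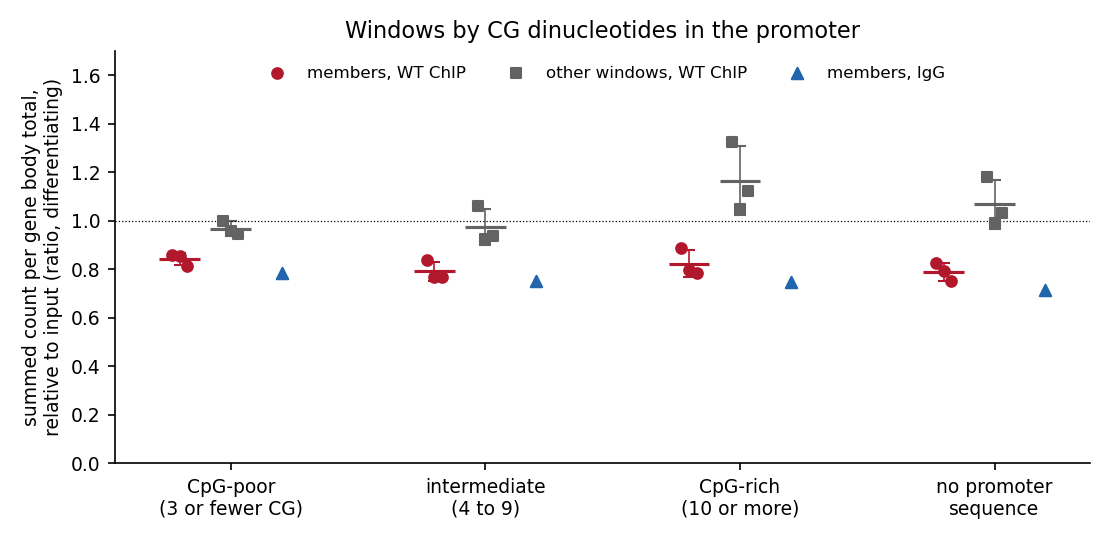
Summed count per gene body total relative to input in differentiating cells (vertical axis, ratio) by number of CG dinucleotides in the RefSeq promoter of 300 bases. Points are the 3 WT ChIP libraries for low-P windows (members, red) and other windows (grey) with mean and SD, and blue triangles the IgG library at low-P windows; members stand at 0.788 to 0.842 on average in all 4 classes and other windows at 0.967 to 1.16.

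Low-P genes were also short, and their share differed between chromosomes. The median gene body was 6281 bases in low-P windows and 15454.5 bases in other windows, and 18.9% against 6.35% were at most 1000 bases, so that the window was the whole gene. On chromosome 7, 275 of 1817 windows that could be chosen were low-P windows (15.1%), followed by chromosomes 14 and 12 (11.7% on chromosome 12), and the lowest share was 6.28% on chromosome 3. Of the 1777, 178 (10.0%) lay in 40 runs of 3 or more neighbouring low-P windows, and 720 (40.5%) had another within 100 kb. Of all 19387 windows that could be chosen, 86.5% had another such window within 100 kb. That set is far denser, and whether low-P windows lay closer together than an equal number of other windows was not tested. By type, 1355 were protein-coding genes, 217 lncRNAs, 77 V segments and 62 pseudogenes.

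A few windows carried far more counts than the rest. Sfi1, a spindle protein gene on chromosome 11, had 597, 604 and 675 counts in differentiating WT ChIP, 231, 144 and 229 in proliferating WT ChIP, 16 and 3 in the differentiating and proliferating null libraries, 129 and 170 in IgG, and 918 and 802 in input. Scaled, it held 47.6, 47.3 and 39.5 CPM in differentiating WT ChIP, 46.5 and 67.3 CPM in differentiating and proliferating IgG, and 72.3 and 67.6 CPM in differentiating and proliferating input. Differentiating WT ChIP was near differentiating IgG and below both inputs, while proliferating IgG was level with proliferating input. Ugt1a1, a bilirubin-conjugating enzyme that shares its locus with sister genes, had 74, 93 and 105 counts against 123 in input, and Zfp991 65, 54 and 68 against 78. Without Sfi1 the summed ratio of the low-P windows was 0.817, against 0.811 with it. Of the named low-P windows with the lowest P, Itga10 had 11, 8 and 16 counts in differentiating WT ChIP against 17 in input, and 1, 2 and 0 against 20 in proliferation. Scaled, the proliferating Itga10 values were 0.220, 0.501 and 0 CPM against 1.68 CPM. Igflr1, a receptor of lymphocytes, had 8, 8 and 9 against 16, and Msh4, a meiotic protein, 6, 12 and 14 against 19, all below input. Alkbh4, a demethylase, had 16, 7 and 10 against 9, and Sim1, a factor of the hypothalamus, 12, 14 and 24 against 14. These 2 straddled input in differentiation despite a P of −2.03 and −1.93.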

How the data were processed

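ChIP-seq reads were counted by the authors per gene, over the gene body and over a window from the transcription start to 1 kb downstream, and the deposited values are raw counts. The submitters' processing notes name bcl2fastq, featureCounts and the mm10 build; versions, the aligner and the treatment of duplicates are not given in the sources used here. The 24 files of single libraries equalled the columns of the deposited tables, 0 columns were left unmapped, and no pair of libraries agreed within sampling noise (lowest chi-square per degree of freedom 1.442).

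Gene IDs were matched to RefSeq (GRCm38.p6), and 1891 had no match. Ratios used counts divided by gene body totals, with a pseudocount of 1 per window. Differentiating WT ChIP was tested against differentiating input and against IgG with edgeR 4.0.16 (quasi-likelihood, gene body totals as library sizes, mean count of at least 10, Benjamini-Hochberg adjustment over all genes, R 4.3.3), after checking the script on simulated data. DESeq2 1.42.0, TMM, other library sizes, pseudocounts, filters, choices of windows and left-out libraries were alternatives. Python 3.11.15, pandas 2.3.3, scipy 1.17.1 and matplotlib 3.10.9 were used. Exact Poisson intervals (95%) cover counting error only.

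The windows and gene lists were chosen with earlier results of these data known. Predicted, clone and microRNA symbols left out, names were drawn by fixed rules, but not every window that met a rule is named. The rules took the 10 low-P windows with the lowest P at a proliferating input count of 20 or more. They also took the 10 lower ones with the lowest p against each control and up to 4 per list by summed count. Last came 3 on either side of the threshold and the 5 with the highest input count. Other names were chosen after their values were seen, and say so.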

Additional observations from a re-analysis of the deposited data

How the results depend on the processing

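Of the summary values under an alternative, 97 stayed within the limit set for them and 25 moved. For ratios the limit was the SD between WT libraries, for IgG over input that between the 2 IgG libraries, and for null cells the Poisson interval. Counts of calls had to be equal or within a fixed factor. Window calls against input were 0 in every setting and are among the 97. Of the values for single windows and genes, 222 kept their side of the threshold, 24 lost a call and 0 reversed. With window totals as library sizes the median log2 ratio of differentiating WT ChIP was −0.45 over input and −0.52 over IgG, the summed ratios were 0.760 for WT and 0.858 for null, and 1 window was lower than IgG. The median over IgG was −0.029 at a pseudocount of 0.5 and −0.90 at 3; at 3 the median over input was −0.46 and that of IgG over input 0.43, with its sign changed. Choosing P of −1 or less gave −0.44 over input and −0.35 over IgG. An input count of at least 30 left 27 windows, with a summed ratio of 0.685 and, relative to other windows, 0.650. Leaving out each differentiating WT library gave medians over IgG of −0.28 to −0.19, gene bodies lower than input in 0 to 199 cases and higher in 0 to 45, and gene bodies lower than IgG in 1 to 13 and higher in 1 to 21. Gene bodies lower than input numbered 66, and 11 with TMM and 0 with DESeq2. TMM moved the median fitted log2 difference of all gene bodies against input to −0.025, against −0.16 with gene body totals, and that of all windows against IgG to 0.14, against 0.46. At the low-P windows that passed the count filter the median against IgG was −0.014 with TMM and 0.30 with gene body totals. Without the filter it was 0.24 with gene body totals. Against IgG, 2 gene bodies were lower with DESeq2, and 2 lower and 5 higher with both IgG libraries as control. The causes were not tested. The ratio relative to other windows and the omission of Sfi1 were chosen after seeing the data. No paired analysis was possible because WT ChIP was set against 1 control library, so fewer than 2 replicate numbers were shared. Depth limits single windows (median IgG count 2) and the null libraries most.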

Other observations

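Windows that met both limits on input and P but had no autosomal position were kept out of the set. The 210 such windows on chromosome X held 0.726, 0.725 and 0.402 times the differentiating input in the 3 differentiating WT libraries, 0.380 and 0.671 times in the differentiating and proliferating null libraries, and 0.382 and 0.452 times in differentiating and proliferating IgG. Replicate 3, the differentiating null library and both IgG libraries were the low ones, and they had the 4 highest shares of Y counts. The differentiating null value rested on 34 counts. Over all X gene bodies that library was not low, at 3.54% of autosomal counts. Replicate 3 held 2.47%, and differentiating and proliferating IgG 2.53% and 2.10%. The 264 windows without a RefSeq position held 0.739, 0.728 and 0.673 times in the same WT libraries, and 0.848 and 0.953 times in IgG.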
